A study of Homo sapiens with 2 samples.

Results

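The distal arm of chromosome 8 was taken as all anchors of chromosome 8 (hg19) that start at or beyond 70 Mb, up to the end of the long arm, together with all anchor pairs that lie wholly within it. An anchor is a stretch of a few kilobases between which paired-end tags were counted. The segment held 8278 of the 250217 anchors of the autosomes and chromosome X. It held 74681 of the 1540905 rows of replicate 1 and 84791 of the 1740528 rows of replicate 2. Members were chosen by position and by no measured value. The comparison regions were the other 5383 anchors of chromosome 8 and the 233595 anchors of the other autosomes.

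H3K27ac HiChIP was carried out in HCT116, an established human colorectal carcinoma cell line that was grown in Dulbecco's medium with fetal bovine serum. The labels name no treatment. Chromatin was fixed with formaldehyde, cut with MboI, religated and immunoprecipitated with an antibody against H3K27ac. There were 2 replicates of 1 condition and no control group, and the sources do not say whether they came from separate cultures, so the spread between them may be technical. The total counts were 1885481 and 2131466 in replicates 1 and 2, and an HCT116 culture is a single line, so nothing here speaks for other colorectal tumours.

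H3K27ac is a histone acetylation found at active enhancers and promoters, and HiChIP counts ligated fragment pairs of which chromatin with that mark was pulled down. A tag count therefore rises with the mark, with contact frequency and with the number of copies of the DNA. HCT116 is known as a near-diploid line whose karyotype carries an additional piece of 8q from band 8q13 to the end of the arm, and additional pieces of distal 10q and distal 17q. Copy number was not measured here, the tables list pairs within 1 chromosome only, and copy number, the level of the mark and the calling of anchors cannot be told apart in these counts.

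The cell type was checked at the promoters of marker genes, as the percentile of their depth among all autosomal protein-coding promoters that held an anchor. The epithelial keratin genes KRT8, KRT18 and KRT19 reached percentiles of 98.0, 99.5 and 97.5. The depth of KRT18 was summed over 2 promoter anchors, whereas KRT8 and KRT19 had 1 each. EPCAM, which encodes an epithelial adhesion molecule, was at 50.3, and CDH1, which encodes E-cadherin, was at 11.6. Of 4 markers of other cell types, PTPRC was at 45.7, CD3E at 26.7, COL1A1 at 51.8 and ALB at 26.7, and none of these 4 promoters had a pair with a count of 5 or more. The epithelial label was therefore carried by the keratin genes, not by all its markers.

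Anchors were denser on distal 8q than elsewhere. The segment held 108.5 anchors per Mb, compared with 77.1 on the rest of chromosome 8 and 88.3 on the other autosomes, and anchors covered 38.1% of its length, compared with 24.0% and 28.6%. Its anchors were somewhat wider, with a median of 2749 bp against 2458 and 2543 bp, and 2.65% of them were at least 10 kb wide, compared with 1.24% and 1.70%. They were poorer in promoters. Only 3.93% of the anchors of distal 8q overlapped the promoter of a protein-coding gene (transcription start site ± 2.5 kb), compared with 4.94% on the rest of chromosome 8 and 6.72% on the other autosomes, and their mean GC content was 40.3% compared with 41.98% and 42.06%. Since the source of the anchor set is not given, density and depth may come from the same tags and are not independent measures.

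The depth of an anchor, the summed count of its pairs with all different anchors of the chromosome, was higher on distal 8q. In replicate 1 the mean depth was 20.0 on distal 8q, 11.0 on the rest of chromosome 8 and 12.5 on the other autosomes. In replicate 2 it was 23.2, 12.6 and 14.5. The level of distal 8q was above both comparison regions in both replicates, and the lower of its values was above the higher of theirs. Within a replicate the ratio to the other autosomes was 1.60 (95% interval 1.59 to 1.61) in replicate 1 and 1.60 (1.59 to 1.61) in replicate 2, a mean of 1.60 ± 0.0029 (SD, n = 2), and the ratio to the rest of chromosome 8 was 1.83 ± 0.022 (SD, n = 2). The intervals are exact conditional binomial intervals that cover counting error only, because the tables hold no molecular identifiers and anchors are not replicates.

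The whole distribution lay higher, not only its upper end. In replicate 1 the 10th percentile, median and 90th percentile of depth were 7, 16 and 36 on distal 8q, compared with 4, 10 and 23 on the other autosomes. In replicate 2 they were 8, 19 and 42, compared with 5, 12 and 26. Only 14 and 5 of the 8278 anchors had a depth of 0 in replicates 1 and 2. Counts of an anchor with itself, which are left out of the depth, were also higher, at 1.60 ± 0.00094 per anchor on distal 8q, 1.07 ± 0.028 on the rest of chromosome 8 and 1.20 ± 0.00079 on the other autosomes (SD, n = 2).

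The 2 other segments with known additional copies had depths close to that of distal 8q. Relative to the autosomes without distal 10q, distal 17q and chromosome 8, mean depth was 1.64 ± 0.0028 on distal 8q, 1.63 ± 0.013 on 10q from 97 Mb and 1.71 ± 0.0047 on 17q from 38 Mb (SD, n = 2). The same ratio was 0.894 ± 0.0090 for the rest of chromosome 8 and 0.272 ± 0.00017 for chromosome X, which HCT116 is known to carry in a single copy. Chromosome X also held only 19.5 anchors per Mb.

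The ratio was not the same for every kind of anchor. It was 1.81 ± 0.023 for promoter anchors, whose mean depth was 35.4 and 40.9 on distal 8q against 19.4 and 22.8 on the other autosomes. It was 1.60 ± 0.0022 for anchors in gene bodies and 1.64 ± 0.014 for anchors outside protein-coding genes. Among anchors of like width it lay between 1.48 and 1.56 in all 5 width classes. Among anchors of like GC content it was lowest, 1.52 ± 0.012, below 38% GC and highest, 1.77 ± 0.021, from 48% GC on.

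The ratio also moved with local anchor density. In 1 Mb windows with 120 or more anchors, which held 6489 of the 8278 anchors of distal 8q, depth was 1.49 ± 0.0085 times that of equally dense windows of the other autosomes. With 80 to 119 anchors the ratio was 1.36 ± 0.017. With 40 to 79 anchors, a class of 242 anchors of distal 8q, it was 0.975 ± 0.041, and with fewer than 40, a class of 153 anchors, it was 1.14 ± 0.014 (SD, n = 2). The class of 40 to 79 anchors was thus the one in which the segment was not deeper than the other autosomes.

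**Figure D1:**
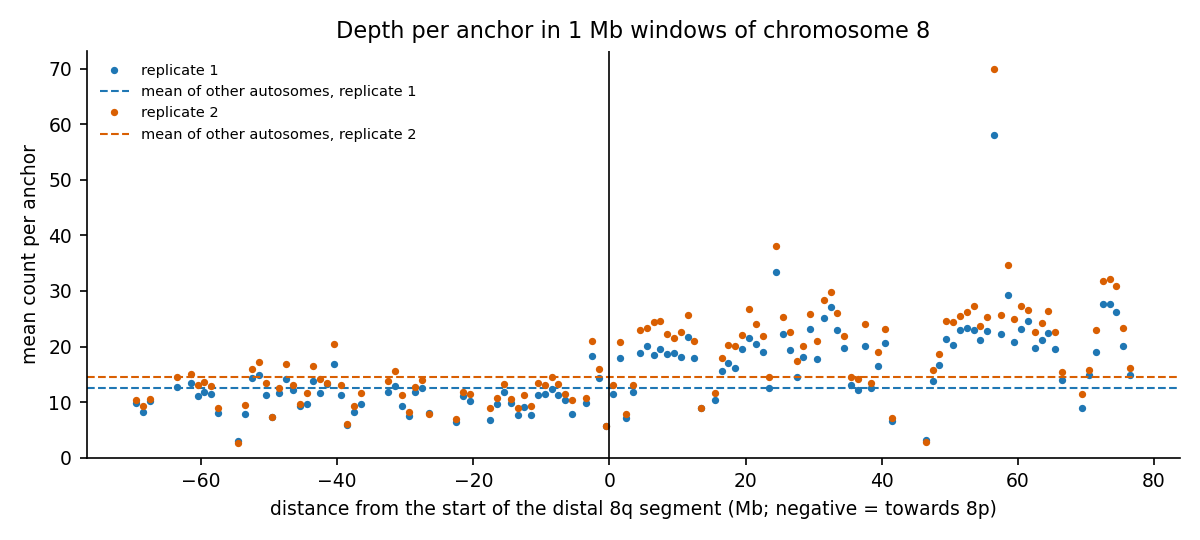
Mean count per anchor (y axis) in 1 Mb windows with at least 20 anchors along chromosome 8, by distance from the start of the distal 8q segment in Mb (x axis), with 1 point per replicate and dashed lines at the mean of the other autosomes in each replicate. Most windows right of the start lie above both lines, from about 4 Mb inside the segment on, and the highest pair of points is 58.1 and 69.8.

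Along the arm depth was uneven. All 16 windows of 5 Mb within the segment, with means over both replicates of 15.2 to 33.1 and a median of 20.5, were above 12.9, the median of 496 windows on the other autosomes outside the 10q and 17q segments. Of the 16 windows, 13 were above the 95th percentile of those windows (16.4) and 5 were above the highest of them (23.6). The 14 windows on the rest of chromosome 8 lay between 9.57 and 14.1. Of the 20 deepest windows of all 543, 7 were on distal 8q, 6 on distal 17q, 5 on distal 10q and 2 elsewhere.

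The shallowest window of the segment was its first, from 70 to 75 Mb, with 14.1 in replicate 1 and 16.3 in replicate 2. The deepest was that from 125 to 130 Mb, with 30.5 and 35.8, which ranked first among all 543 windows in both replicates. In steps of 1 Mb the deepest was that from 126 to 127 Mb, with 58.1 and 69.8 over 127 anchors. The next, from 94 to 95 Mb, had 33.5 and 38.1 over 126 anchors. The lowest values were found in 5 windows with fewer than 20 anchors, between 84 and 85 Mb and between 112 and 116 Mb. The window from 114 to 115 Mb, for example, had 11 anchors with mean depths of 1.45 and 2.36. Some windows with more anchors were low too, such as 116 to 117 Mb with 3.16 and 2.86 over 37 anchors. From 72 to 73 Mb it was 7.23 and 7.81 over 78 anchors. No anchor started between 137 and 139 Mb. Without the window from 126 to 127 Mb, the ratio of distal 8q to the other autosomes was 1.55, and the ratio to the rest of chromosome 8 was 1.78.

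Depth did not step up at the limit of 70 Mb that defines the segment. The 5 anchors next to the limit on the outside had depths of 1 to 6 in replicate 1 and 2 to 5 in replicate 2, and the 5 next to it on the inside had 1 to 6 and 1 to 5. Mean depth was 12.8 and 14.3 from 65 to 70 Mb and 12.9 and 14.8 from 70 to 73 Mb, so the first 306 anchors of the segment were as shallow as their neighbours outside. From 73 to 75 Mb it was 15.5 and 18.3, and from 75 to 80 Mb it was 19.1 and 23.2. In steps of 1 Mb all 6 windows between 74 and 80 Mb had mean depths of 20.1 to 22.1 over both replicates, whereas the 4 before them ranged from 7.52 to 19.4 and the last window outside had 5.78. One window outside, from 67 to 68 Mb, reached 18.2 and 21.1. Windows with few anchors well inside the arm were low too, and the extent of the additional copies was not measured. With a start at 74 Mb the ratio to the other autosomes was 1.63.

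Counts per possible anchor pair, which take the number and spacing of anchors into account, were also higher on distal 8q at every distance. In pairs with midpoints less than 20 kb apart, 808 and 908 counts per 1000 possible pairs were found in replicates 1 and 2, which was 1.34 ± 0.00033 times the rate on the other autosomes. The ratio was 1.38 ± 0.0021 at 20 to 100 kb and 1.41 ± 0.015 at 100 to 500 kb. It was 1.55 ± 0.013 at 500 kb to 2 Mb and 1.55 ± 0.012 at 2 to 20 Mb (SD, n = 2). Against the other autosomes the ratio was thus larger for long pairs than for short ones, by more than the spread between the replicates. Over all pairs up to 2 Mb, with distance taken into account, the ratio was 1.42 ± 0.0067. Relative to the rest of chromosome 8 there was no such trend. That ratio was 1.47 ± 0.019 below 20 kb, peaked at 1.77 ± 0.015 at 500 kb to 2 Mb and was again 1.47 ± 0.031 at 2 to 20 Mb.

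The 3 segments with known additional copies differed in the shape of this profile. On distal 17q the ratio to the other autosomes fell from 1.78 ± 0.014 below 20 kb to 1.28 ± 0.012 at 2 to 20 Mb. On distal 10q it was 1.46 ± 0.023 below 20 kb, 1.29 ± 0.036 at 500 kb to 2 Mb and 2.07 ± 0.039 at 2 to 20 Mb (SD, n = 2). The difference in shape between the segments was not tested.

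**Figure D2:**
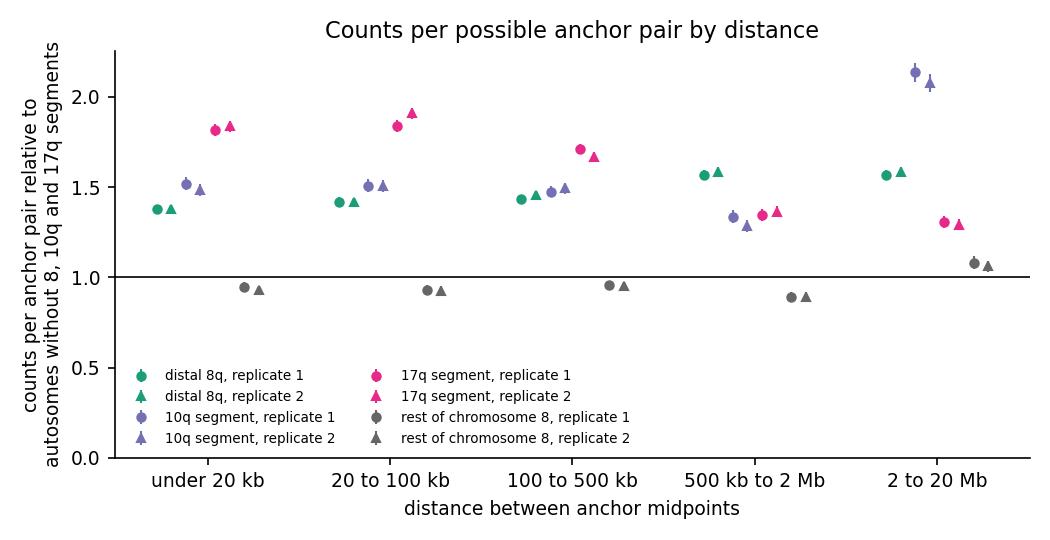
Counts per possible anchor pair relative to the autosomes without chromosome 8 and without the distal 10q and 17q segments (y axis, ratio) in 5 classes of distance between anchor midpoints (x axis), for distal 8q, the 10q and 17q segments and the rest of chromosome 8, with circles for replicate 1, triangles for replicate 2 and bars for 95% counting intervals. Distal 8q rises from 1.38 below 20 kb to 1.58 at 2 to 20 Mb, 17q falls, and the rest of chromosome 8 stays near 1.

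Pairs of 2 to 20 Mb were then sorted by whether they cross the limit of the segment. Pairs wholly inside distal 8q numbered 12899 and 14944 counts, which was 1.53 ± 0.012 times the count expected from the rates of the other autosomes at the same distances. Pairs wholly in the rest of chromosome 8 reached 1.04 ± 0.014 times. Pairs across the 70 Mb limit, with counts of 1034 and 1110, reached 1.07 (1.00 to 1.13) and 0.997 (0.939 to 1.06) in replicates 1 and 2. Contacts across the limit were therefore at the level of the rest of the chromosome, below that inside the segment. At 20 kb to 2 Mb the pairs across the limit were few, 59 and 48 counts, and at 0.660 ± 0.16 times the expected count (SD, n = 2).

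The same count was taken for pairs that cross other positions. It was 1.27 ± 0.0075 times the expected count at 76 Mb, 1.46 ± 0.031 at 77 Mb and 1.53 ± 0.049 at 78 Mb, stayed between 1.32 and 1.61 at steps of 5 Mb from 80 to 125 Mb, and was 2.14 ± 0.014 at 130 Mb. The rise was gradual, with 1.03 at 70 Mb and 1.15 at 75 Mb, and the value at 80 Mb was again lower, at 1.39. Pairs up to 20 Mb long draw on wide stretches on both sides of a position, so these values do not locate a step. High values were not particular to distal 8q, as contacts across positions near the other end of the chromosome, at 5 and 10 Mb on 8p, also reached 1.42 and 1.51.

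**Figure D3:**
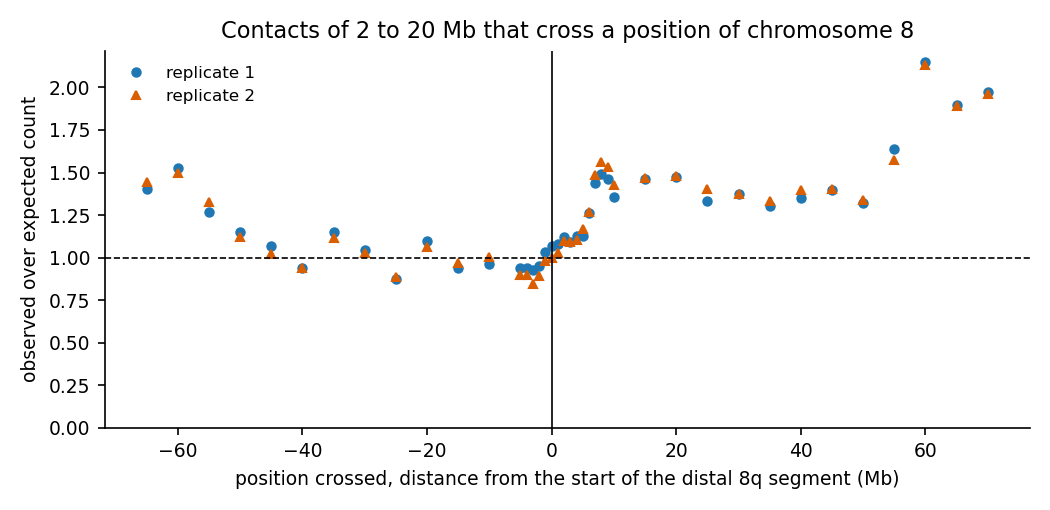
Observed over expected count of pairs 2 to 20 Mb apart that cross a position of chromosome 8 (y axis), by the distance of that position from the start of the distal 8q segment in Mb (x axis), with circles for replicate 1 and triangles for replicate 2. Values lie near 1 around the start, rise between 5 and 8 Mb inside it to 1.53, reach 2.14 at 60 Mb, and are also raised at the far 8p end.

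The loops considered here had midpoints no more than 2 Mb apart, and those of distal 8q were longer. Distal 8q had 50982 loops in replicate 1 and 58380 in replicate 2, with median lengths of 178 and 185 kb. The median was 126 and 133 kb on the rest of chromosome 8 and 142 and 148 kb on the other autosomes. Most loops rested on a single tag, 87.1% and 86.4% of those on distal 8q.

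Strong loops, those with a count of at least 5 in a replicate, were more frequent on distal 8q. They numbered 394, or 0.773% of loops (exact Clopper-Pearson interval 0.699 to 0.853), in replicate 1 and 547, or 0.937% (0.860 to 1.02), in replicate 2. The share on the other autosomes was 0.482% and 0.582%, and on the rest of chromosome 8 it was 0.339% and 0.399%. The lower of the shares of distal 8q was above the higher share of each comparison region. The mean share was 0.855% ± 0.12 (SD, n = 2) on distal 8q, 1.61 times that of the other autosomes within a replicate. The segments most like it had higher shares, 0.992% and 1.08% on distal 10q and 1.34% and 1.56% on distal 17q.

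The share was above that of the other autosomes in every length class in both replicates. Below 10 kb 4.76% and 6.03% of the loops of distal 8q were strong, at 20 to 50 kb 1.03% and 1.06% were, and at 100 kb to 2 Mb 0.0452% and 0.0721% were. At 50 to 100 kb the difference was within counting error in replicate 1, with 0.217% (0.112 to 0.379) against 0.164% on the other autosomes. Among loops of 20 kb or more the share was 0.236% ± 0.033 on distal 8q, 0.123% ± 0.027 on the other autosomes and 0.0427% ± 0.013 on the rest of chromosome 8 (SD, n = 2). There were 91 and 129 strong loops of this length on distal 8q and 5 and 9 on the rest of chromosome 8. On distal 10q the share at this length was 0.237% ± 0.023 and on distal 17q 0.367% ± 0.096. Such long loops made up 23.1% and 23.6% of the strong loops of distal 8q, compared with 7.81% and 10.6% on the rest of chromosome 8 and 17.6% and 20.1% on the other autosomes.

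**Figure D4:**
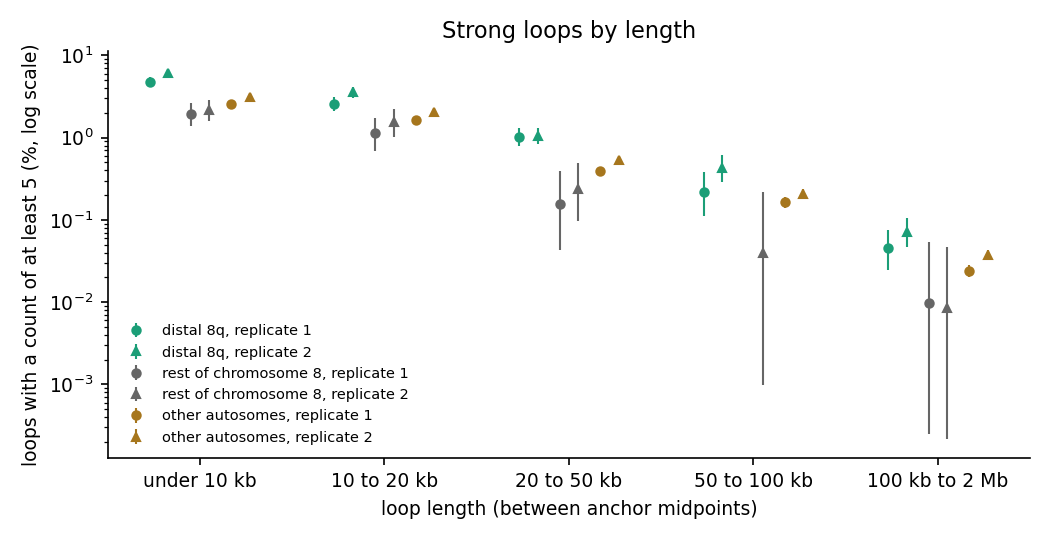
Share of loops with a count of at least 5 in percent (y axis, log scale) by loop length (x axis) for distal 8q, the rest of chromosome 8 and the other autosomes, with circles for replicate 1, triangles for replicate 2 and bars for exact 95% intervals. Distal 8q has the highest share of these 3 regions in each length class, and the share of 0 on the rest of chromosome 8 at 50 to 100 kb in replicate 1 (interval up to 0.166%) is not drawn.

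Strong loops were compared between the replicates. Of the 394 in replicate 1, 95.4% had at least 1 count in replicate 2, and of the 547 in replicate 2, 90.7% had at least 1 count in replicate 1. These shares were near those of the other autosomes, 92.4% and 89.1%. Strong in both were 174, or 44.2% and 31.8% of the strong loops of distal 8q, compared with 37.6% and 27.4% on the other autosomes. Most joined anchors without a promoter. On distal 8q 75.6% and 78.2% of the strong loops had no promoter at either end, compared with 69.0% and 68.1% on the other autosomes, and 5.08% and 5.48% had a promoter at both ends, compared with 7.49% and 7.86%.

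They clustered at a few sites. The 1 Mb from 126 to 127 Mb held 76 of the 394 strong loops of replicate 1 (19.3%) and 113 of the 547 of replicate 2 (20.7%). The 1 Mb from 94 to 95 Mb held 42 (10.7%) and 49 (8.96%). Toward the end of the arm there were 14 to 24 in replicate 1 and 18 to 29 in replicate 2 in each of the 4 windows from 142 to 146 Mb. The window from 128 to 129 Mb held 18 and 21, and that from 102 to 103 Mb held 14 and 16. Without the window from 126 to 127 Mb, the share of strong loops on distal 8q was 1.35 times that on the other autosomes.

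The strongest loops lay at PDP1, which encodes a phosphatase that activates the pyruvate dehydrogenase complex. The anchors chr8:94884557-94889106 and chr8:94890144-94900467 were joined by 44 tags in replicate 1 and 48 in replicate 2 over 8.47 kb, the highest count of the segment. Both lie within the annotated span of the gene, but 41.0 and 32.5 kb upstream of the promoter anchor used here. The second of them was joined to the anchor of the PDP1 promoter, chr8:94921342-94934344, by 23 and 24 tags over 32.5 kb, the highest count of any loop of 20 kb or more. The promoter had a depth of 188 and 196 and formed 16 loops with a summed count over both replicates of at least 5, of which 13 were 20 kb or longer. Of the 10 highest loops of the segment by summed count, 5 joined anchors of PDP1. Between chr8:94912584-94919052 and the promoter anchor there were 16 and 16 tags, whereas the loop from the promoter to chr8:94967500-94976265 had 11 and 1, and 2 others had 5 and 11.

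The other sites of high counts lay in NSMCE2, which encodes a SUMO ligase of the SMC5/6 complex, and in the non-coding gene LINC02964 beyond TRIB1. The anchor chr8:126281394-126292844 in NSMCE2 had a depth of 327 and 353, the highest of the segment and the seventh highest of all autosomal anchors by summed depth. It was joined to chr8:126269999-126274444 by 18 and 18 tags, and to chr8:126152843-126168298, also in NSMCE2 and 127 kb away, by 12 and 15 tags. In LINC02964 the anchors chr8:126690650-126693995 and chr8:126697528-126700601 were joined by 27 and 27 tags over 6.74 kb. These anchors hold no promoter, whereas the promoter of NSMCE2 itself was of moderate depth, 21 and 36. Of the 100 deepest autosomal anchors, 13 were on distal 8q, none on the rest of chromosome 8 and 17 on the 10q and 17q segments.

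TRIB1, between these 2 sites, encodes a pseudokinase that brings substrates to the ubiquitin ligase COP1. Its promoter anchor, chr8:126438553-126445645, had a depth of 164 and 210, which placed it at percentile 99.96 of autosomal promoters. It had 6 strong loops in replicate 1 and 7 in replicate 2. Of the 22 loops with a summed count of at least 5, 11 ended in NSMCE2, 133 to 319 kb upstream, 6 ended 9.72 to 58.4 kb upstream outside protein-coding genes, and 5 ended downstream, up to 270 kb away. The highest, with 8 and 14 tags, led over 155 kb to chr8:126281394-126292844, the deepest anchor of the segment. The next in NSMCE2, with 4 and 7 tags, spanned 282 kb. Loops to LINC02964 had 4 and 5 tags over 219 kb and 3 and 6 tags over 270 kb. Between these distances, others had 1 and 5 tags over 250 kb and 2 and 3 tags over 257 kb. Long loops to both sides of its promoter thus accounted for 15 of the 22, at 100 kb or more.

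Each anchor pair within 2 Mb was also set against the count expected from its distance, in a Poisson test for higher counts (one-sided), and p-values were adjusted by the Benjamini-Hochberg method for the 51094598 pairs of the autosomes and chromosome X. At an adjusted p of 0.01, 123 of the 1946106 pairs of distal 8q (0.00632%) were above expectation in replicate 1 and 179 (0.0092%) in replicate 2, and 56 were so in both. Over all pairs tested, 0.00258% and 0.00357% were. On the rest of chromosome 8, 11 and 13 pairs were called. This test does not take the depth of the anchors into account, so every deep anchor adds to its calls.

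With the depth of both anchors in the expectation, 1 pair of distal 8q was called in each replicate, and not the same one. Over all pairs tested, 4 and 11 were called, or 7.83e-06% and 2.15e-05%, of which 3 and 10 were on the other autosomes. In replicate 2 it was chr8:143884936-143893813, which overlaps an unnamed non-coding gene, with chr8:143895391-143902266. This pair lay outside protein-coding genes, was 9.45 kb apart and had 22 tags against 2.81 expected (exact Poisson test, adjusted p = 4e-06). In replicate 1 it had 14 tags against 4.90 expected (exact Poisson test, adjusted p = 1). In replicate 1 the pair called was chr8:86562870-86566298 with chr8:86822695-86824283, with 4 tags there and 1 in replicate 2. In replicate 1 the loop from chr8:94890144-94900467, upstream of the PDP1 promoter, to that promoter had 23 tags. The expected count was 0.186 from distance and 8.44 from distance and depth. In replicate 2 the loop had 24 tags against 0.214 and 9.98. The 12 and 15 tags of the loop of 127 kb within NSMCE2 stood against 0.0597 and 0.0684 from distance and 5.84 and 6.79 with depth. Neither of these loops passed the second test in either replicate (exact Poisson test, adjusted p = 1). Of the 10 highest loops and the 10 highest of 20 kb or more, only the pair at chr8:143884936-143893813 passed it, and in replicate 2 only.

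Of the 348 protein-coding genes of distal 8q, 319 had an anchor at the promoter. A strong loop was present at 82 of these promoters (25.7%) in replicate 1 and 94 (29.5%) in replicate 2. The share on the other autosomes was 9.59% and 13.4%, and on the rest of chromosome 8 it was 6.08% and 8.75%. The median promoter depth was 39 and 45 on distal 8q, compared with 19 and 23 on the other autosomes and 18 and 20 on the rest of chromosome 8. Within a replicate the share of promoters with a strong loop was 2.44 ± 0.34 times that of the other autosomes (SD, n = 2).

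Among 62 genes of the arm in 6 lists by function, 59 had a promoter anchor, and TRPS1, SDC2 and ANGPT1 had none. The promoters of 53 were deeper than the median of all autosomal promoters and those of 33 were above the 90th percentile. A strong loop was present at 17 of the 59 in replicate 1 and 17 in replicate 2. Over all 319 promoters of distal 8q the median depth was 39 and 45, compared with 41 and 48 at the 90th percentile of the other autosomes. The counts for the lists thus describe genes of a segment that is deeper as a whole, and nothing particular to any list is read from them.

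The growth and survival list held the 2 deepest single promoters of the lists, and 7 of its 8 were above the 90th percentile, with medians of 57 and 57. Beside TRIB1, YWHAZ, which encodes the 14-3-3 protein zeta, had a depth of 148 and 157 and 10 loops with a summed count of at least 5, of which 8 were 20 kb or longer. Its highest loop, of 11.5 kb, had 7 and 15 tags, and others of 9 summed tags reached anchors 75.03, 90.5 and 127 kb upstream. NDRG1, a gene induced by stress and low oxygen, had 85 and 94, and RIPK2, which encodes a kinase acting below the NOD receptors, had 64 and 65. No promoter of this list was below the median.

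All 7 promoters of the translation list were above the median and 5 were above the 90th percentile, with medians of 56 and 66. EIF3H, which encodes a subunit of the initiation factor eIF3, led with 88 and 91 and a loop of 8.67 kb with 7 and 7 tags. The ribosomal protein genes RPL7 and RPL30 had 63 and 83, and 56 and 76. PABPC1, which encodes a poly(A)-binding protein, had 56 and 66. The lowest was RPL8 with 27 and 38, which nevertheless had a strong loop in both replicates, of 6 and 8 tags.

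Of the 15 transcription factors and coregulators with an anchor, 14 were above the median and 9 above the 90th percentile. NCOA2, which encodes a coactivator of nuclear receptors, was deepest with 78 and 88, in the window from 71 to 72 Mb, whose mean depths were 17.9 and 20.8. MAF1, a repressor of RNA polymerase III, had 62 and 62, summed over 2 promoter anchors. These include chr8:145154866-145157044 in SHARPIN, which reaches the promoter window only with its end. MAFA, a factor known from insulin gene control, had 52 and 51 and a loop of 38.2 kb with 4 and 6 tags. RUNX1T1, a corepressor gene, was lowest with 9 and 9, in both replicates below the median of 19 and 23.

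MYC, the best known oncogene of the arm, had a promoter depth of 57 and 64 and no strong loop, and its highest loops, of 1 and 3 tags over 526 kb and 2 and 2 tags over 535 kb, led upstream to anchors in the non-coding genes CASC19 and PCAT1, which were named after their values were seen. The 63 anchors from MYC through PVT1 had a mean depth of 23.7 and 29.1, with 1 and 2 strong loops. Of their 408 loops, 12 had a summed count of at least 5, against 2.02% of all loops of distal 8q and 1.45% on the other autosomes.

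Of 11 genes for adhesion, cytoskeleton and cell surface with an anchor, 10 were above the median and 5 above the 90th percentile. PSCA, which encodes a surface antigen of the LY6 family, had 107 and 105, summed over 2 promoter anchors. EXT1, which encodes an enzyme that extends heparan sulfate chains, had 72 and 87. PLEC, which encodes the cytoskeletal linker plectin, had 41 and 53 and a loop of 9.87 kb with 8 and 16 tags. The region of 12 LY6 family genes on 8q24 held 63 anchors with a mean depth of 26.3 and 29.95, and 9 and 13 strong loops. Of its 554 loops, 38 had a summed count of at least 5 over both replicates. Of all loops, 2.02% on distal 8q and 1.45% on the other autosomes reached that sum.

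In the metabolic list, 7 of 8 promoters were above the median and 4 above the 90th percentile. UQCRB, which encodes a subunit of respiratory complex III, had 66 and 82. SQLE, which encodes squalene epoxidase of cholesterol synthesis, had 59 and 73, summed over 2 promoter anchors. CYC1, which encodes cytochrome c1, had 49 and 46. It formed a loop of 6.29 kb with 7 and 4 tags to chr8:145154866-145157044, an anchor in SHARPIN. That anchor holds no start site of a protein-coding gene and reaches the MAF1 promoter window (± 2.5 kb) only with its end. COX6C, which encodes a subunit of cytochrome c oxidase, had only 10 and 12.

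The list of replication, repair, cohesin and cell cycle genes was the shallowest, with 7 of 10 promoters above the median and 3 above the 90th percentile, and medians of 26.5 and 36. NBN, of the MRE11 repair complex, had 54 and 61, summed over 2 promoter anchors. RAD21, the cleavable subunit of cohesin, had 55 and 57, and RRM2B, a subunit of ribonucleotide reductase, had 55 and 45. TERF1, which encodes a telomere-binding protein, had 10 and 16, and CCNE2, which encodes cyclin E2, had 11 and 16, both below the median in both replicates. RECQL4, which encodes a DNA helicase, had a moderate depth of 25 and 36 but 2 strong loops in each replicate. These spanned 6.54 kb with 6 and 8 tags and 11.3 kb with 6 and 5 tags.

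**Figure D5:**
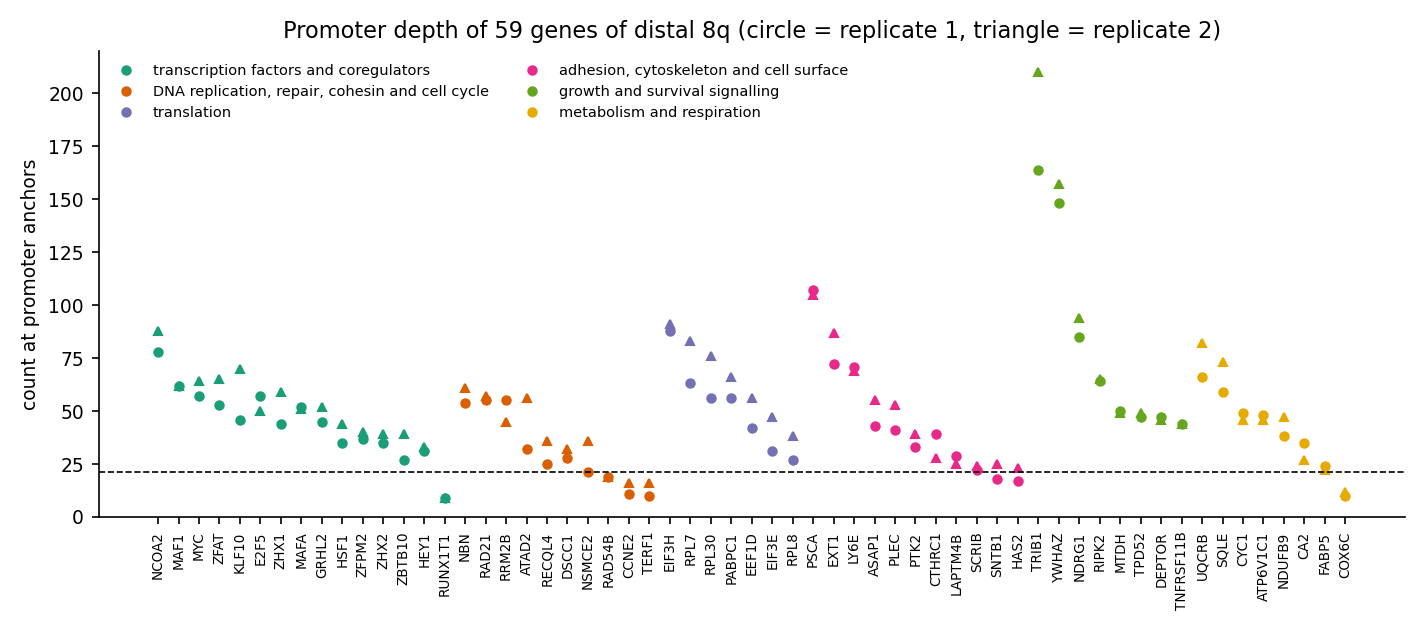
Summed count at the promoter anchors (y axis) of the 59 listed genes of distal 8q that have one (x axis, ordered by list and depth), with circles for replicate 1, triangles for replicate 2, colours for the lists and a dashed line at the median of promoters on the other autosomes, averaged over the replicates. TRIB1 and YWHAZ stand highest, and most points lie above the line.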

How the data were processed

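Per the labels and the methods, the authors cut chromatin with MboI, made valid pairs with HiC-Pro on hg19 and called loops with hichipper, and they deposited 1 table per replicate of unnormalized tag counts between anchors of 1 chromosome. Tool versions, the source of the anchors and distance limits are not given in the sources used here.

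The region, gene lists and comparisons were chosen with earlier results of these data known. Depth was summed over pairs of different anchors. Expected counts came from the rates of the other autosomes in classes of distance, and for the Poisson test from 60 distance classes, with anchor weights from 20 rounds and an offset of 0.5 in the alternative. Scripts were tested on simulated data. Genes came from GENCODE release 44 on GRCh37. The genes named were those of the lists, the genes at the 10 highest loops, the 10 highest loops of 20 kb or more and the 5 deepest anchors. Positions are counted from 1. With 1 condition no test between groups was possible, and intervals cover counting error only. Alternatives covered distance range, statistic, anchors used, limit, minimum count, expectation, promoter width and each replicate left out. The software was scipy 1.17.1, numba 0.67.0, pandas 2.3.3, matplotlib 3.10.9 and numpy 2.4.6 under Python 3.11.15.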

Additional observations from a re-analysis of the deposited data

How the results depend on the processing

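The higher depth, pair rate, share of strong loops and share of promoters with a strong loop on distal 8q kept their direction under the alternatives below. In windows of 40 to 79 anchors, a subset of the anchors, the depth ratio was 0.975 to the other autosomes and 0.959 to the rest of chromosome 8. Since the replicates differed little, small changes exceed their SD. The depth ratio to the other autosomes was 1.58 for pairs up to 2 Mb, 1.64 for pairs over 2 Mb, 1.58 with same-anchor counts, 1.59 for medians, 1.47 per kb of anchor, 1.61 without promoter anchors, 1.51 at like anchor widths, 1.58 and 1.62 with a start at 67 and 73 Mb, and 1.64 without the 10q and 17q segments. Chosen after seeing the data, it was 1.55 without the window from 126 to 127 Mb and 1.63 with a start at 74 Mb. It ranged from 1.597 to 1.601 with 1 replicate left out. The depth ratio to the rest of chromosome 8 was 1.78 for pairs over 2 Mb, 1.81 with same-anchor counts, 1.62 per kb of anchor, 1.69 at like widths and 1.78 without the window from 126 to 127 Mb, and 1.82 to 1.85 with 1 replicate left out. The pair rate was 1.41 between inner edges, 1.40 against windows of like anchor density and 1.41 to 1.42 with 1 replicate left out. The observed over expected count across the 70 Mb limit fell from 1.03 to 0.660 for pairs of 20 kb to 2 Mb, and it was 0.997 to 1.07 with 1 replicate left out, so its side of 1 rests on 1 replicate. The cause was not tested. The ratio of strong loop shares was 1.48 at a count of 4, 1.84 at 8, 1.40 for summed counts, 1.93 from 20 kb to 2 Mb, 1.63 without the 2 Mb limit, 1.87 at like loop lengths, 1.77 without the 10q and 17q segments, 2.31 against the rest of chromosome 8, 1.35 without the window from 126 to 127 Mb and 1.60 to 1.61 with 1 replicate left out. Pairs above the count expected from distance, 151 per replicate on average, numbered 226 at an adjusted p of 0.05 and 1 with anchor depth in the expectation, since deep anchors then raise what is expected, and 123 to 179 with 1 replicate left out. The ratio for promoters with a strong loop was 1.81 for summed counts and 2.21 to 2.68 with 1 replicate left out. No paired analysis was possible because the series holds 1 group. Depth limits single loops, most of which rest on 1 tag.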

Other observations

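The highest single pairs of more than 2 Mb within distal 8q were looked at after their values were seen, and had summed counts of 3 and 4. The highest of all, with 1 tag in replicate 1 and 3 in replicate 2, joined chr8:128233765-128239195, in the non-coding genes CASC19 and PCAT1 upstream of MYC, to chr8:130715746-130726092, in an unnamed non-coding gene. Between the 50 kb bins that hold these anchors, from 128.2 to 128.25 Mb with 9 anchors and from 130.7 to 130.75 Mb with 7 anchors, 10 tags were counted in replicate 1 and 7 in replicate 2. From distance and the rates of the other autosomes, 0.184 and 0.213 were expected. The exact Poisson 95% intervals of the counts were 4.80 to 18.4 and 2.81 to 14.4 tags. These intervals cover counting error only. The bins were chosen because they hold the highest pair, whose own tags are among those counted, so the excess over the expected count is no test. The anchors themselves were deep, with means of 83.1 and 92.3 in the first bin and 44.4 and 48.9 in the second, and the expected count leaves this out. The part of anchor depth in the excess was not tested.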
